A study of Arabidopsis thaliana with 14 samples.

Results

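The clade A protein phosphatases 2C (PP2Cs) of Arabidopsis thaliana were followed here in a brassinosteroid (BR) receptor mutant and its wild type during a drought time course. The family has 9 genes: ABI1 (AT4G26080), ABI2 (AT5G57050), HAB1 (AT1G72770), HAB2 (AT1G17550), HAI1 (AT5G59220), HAI2 (AT1G07430), HAI3 (AT2G29380), AHG1 (AT5G51760) and PP2CA (AT3G11410). Their probes were found by locus name, with no measured value in the rule, although the family was chosen for description with earlier results of these data known. All 9 loci had a probe, of 28327 loci on the array, and ABI2 and HAB1 had 2 probes, which makes 11. After a filter on dim probes 8 of the 9 were left, among 22810 loci, and AHG1 was removed.

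RNA came from mature whole plants of Col-0 WT and of the quadruple mutant bri1brl1brl3bak1 (quad), which carries mutations in the BR receptors BRI1, BRL1 and BRL3 and of the co-receptor BAK1. Both genotypes were grown for 7 days on agar plates and for 16 days on soil, and the series text gives an age of 28 days at collection, whereas the methods speak of plants grown for weeks and of fewer days of collection. Plants were taken at day 0, and at days 2, 4 and 6 either watered or with water withheld, so that there are 7 conditions with 2 arrays each. Each array set quad against WT of the same condition in 2 colours, with quad in Cy5 in replicate 1 and in Cy3 in replicate 2. By the methods each replicate was a pool of several rosettes, so the spread between single plants was not measured. Probes of BAK1, BRL1 and BRL3 read lower in quad on 14 of 14 arrays, and the BRI1 probe, whose allele is a point mutation, on 1 of 14. In RNA of whole plants, a lower transcript level per cell and fewer cells that carry the transcript cannot be told apart.

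Clade A PP2Cs are negative regulators of abscisic acid (ABA) signalling. Without ABA they dephosphorylate and hold inactive the SnRK2 kinases that drive the drought programme, and ABA-bound receptors of the PYR/PYL family capture the phosphatases and set the kinases free. The kinases phosphorylate ABF transcription factors, and the genes these switch on include those of the PP2Cs themselves, so that PP2C transcripts are also used as readouts of the hormone's action. Within the clade ABI1 and ABI2, HAB1 and HAB2, and the more distant HAI1, HAI2, HAI3, AHG1 and PP2CA form closely related subgroups.

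Values below are log2 quad/WT ratios, 1 for each array, or log2 normalised intensities of 1 genotype. A change passed the test at a Benjamini-Hochberg adjusted p under 0.05 over all genes in limma, and the stricter limit of the study's methods, an absolute log2 change over 1.5, is counted beside it. An offset used in background correction pulls the ratios of dim probes towards 0. Over all genes, replicate arrays had an r between 0.523 at day 6 drought and 0.888 at day 2 water, and 1 array, day 4 drought replicate 1, had 17 spots whose local background was far above their signal. The p-values measure the spread between these arrays. Where an array was left out, its condition kept 1 array in 1 dye orientation. The standard error then grows, so a call can be lost even where its value is not smaller.

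In watered plants the median ratio of the 8 genes that passed the filter turned from 0.48 at day 2 to -0.44 at day 4. Not every gene turned, as PP2CA was above 0 on both days (0.31 and 0.14) and HAB2 below it (-0.04 and -0.43). No gene of the 8 passed at day 0, although ABI1 and HAI1 passed there as lower with a term for the replicate number in the fit. At day 2 in watered plants 6 were higher in quad, led by HAI2 (3.07-fold) and HAI1 (2.35-fold), and none was lower. At day 4 in watered plants 5 were lower in quad, led by HAI1 (3.22-fold) and HAI2 (2.45-fold), and none was higher. At the other 4 conditions between 1 and 4 genes were lower in quad and none was higher.

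**Figure D1:**
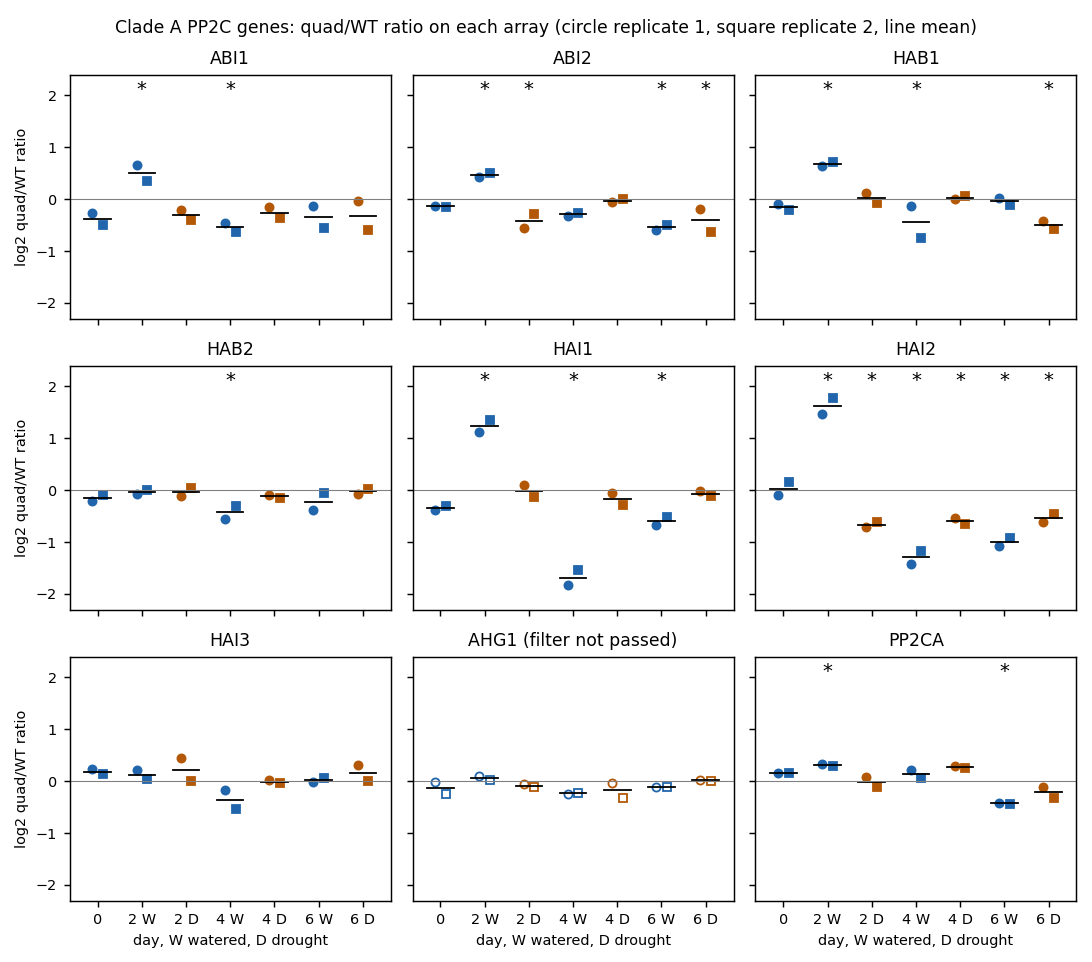
Log2 quad/WT ratio (y axis) of each clade A PP2C on each array by condition (x axis, day with W for watered and D for drought; blue points are day 0 and watered plants, brown points are drought; circles are replicate 1, squares replicate 2, lines their mean, asterisks an adjusted p under 0.05). HAI2 lies between 1.46 and 1.78 at day 2 water and between -1.42 and -1.17 at day 4 water; AHG1, drawn open, did not pass the filter.

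HAI2 (HIGHLY ABA-INDUCED 2) passed in 6 of 7 conditions, every condition but day 0. At day 0 its ratio was -0.09 and 0.15 on the 2 arrays. In watered plants it was 1.46 and 1.78 at day 2, -1.42 and -1.17 at day 4, and -1.07 and -0.92 at day 6. Both arrays of day 2 therefore stand above 0 and all arrays of days 4 and 6 below it. Under drought HAI2 measured -0.71 and -0.62 at day 2, -0.53 and -0.65 at day 4, and -0.61 and -0.46 at day 6, which are 6 arrays of 6 below 0. The fitted ratios were 1.62 at day 2 water (SE 0.104, limma adjusted p 5.09e-07), -0.66 at day 2 drought (limma adjusted p 0.000793), -1.29 at day 4 water (limma adjusted p 4.71e-06), -0.59 at day 4 drought (limma adjusted p 0.00508), -0.998 at day 6 water (limma adjusted p 6.58e-05) and -0.53 at day 6 drought (limma adjusted p 0.00556). The call at day 4 drought was lost without replicate 2 of that condition (-0.53, limma adjusted p 0.203) and the call at day 6 drought without replicate 1 (-0.46, limma adjusted p 0.0728).

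HAI1 (HIGHLY ABA-INDUCED 1, a phosphatase gene that ABA induces) had the largest single difference of the family. Its ratio was -0.38 and -0.31 at day 0. In watered plants it was 1.12 and 1.35 at day 2, -1.83 and -1.54 at day 4, and -0.67 and -0.52 at day 6. Its watered arrays thus followed the order of HAI2, high at day 2 and low from day 4 on. Under drought the values were 0.11 and -0.13 at day 2, -0.06 and -0.29 at day 4, and -0.02 and -0.12 at day 6. The mean HAI1 level was low in both genotypes at day 2 drought (7.04 in quad, 7.06 in WT) and day 6 drought (6.93 and 7.00). It was also low in WT at day 2 water (6.82). The offset pulls the ratios of dim probes towards 0, although the HAI1 probe was well above background in 28 of 28 channels. None of the drought ratios of HAI1 passed, whereas the 3 watered ratios did, at 1.23 (SE 0.103, limma adjusted p 4.05e-06), -1.69 (limma adjusted p 6.28e-07) and -0.59 (limma adjusted p 0.00233). At day 0 the fitted -0.35 missed the threshold (limma adjusted p 0.0527), and it passed with a term for the replicate number in the fit. With an offset of 0 in background correction the HAI1 ratio was 1.92 at day 2 water and -2.21 at day 4 water.

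HAI3, the remaining HAI gene, was near the limit of detection. Its probe was well above background in 15 of 28 channels, 10 of quad and 5 of WT. The ratios ran from -0.54 to 0.45 over the 14 arrays with a median of 0.03, and 0 of the 25 comparisons made for each gene passed. Which channels were called above background did not follow their level alone, as a WT channel at 6.92 (day 2 water replicate 2) was not called and a quad channel at 6.62 (day 2 water replicate 1) was.

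ABI1 (ABA INSENSITIVE 1), the first PP2C found in ABA signalling and a member whose dominant mutation makes plants insensitive to ABA, was lower in quad on 12 of 14 arrays. Day 0 gave -0.28 and -0.51. Watered plants gave 0.66 and 0.35 at day 2, -0.45 and -0.63 at day 4, and -0.14 and -0.55 at day 6, and drought plants -0.20 and -0.41 at day 2, -0.14 and -0.37 at day 4, and -0.04 and -0.60 at day 6. The 2 arrays above 0 are those of day 2 water. Replicate 2, with quad in Cy3, was the lower of the pair in 7 of 7 conditions, and the median gap between replicates was 0.23. The ratio passed at day 2 water (0.50, SE 0.144, limma adjusted p 0.0251) and day 4 water (-0.54, limma adjusted p 0.0262). Each of these 2 calls was lost when either array of its condition was left out: at day 2 water the value was 0.35 (limma adjusted p 0.372) without replicate 1 and 0.66 (limma adjusted p 0.0694) without replicate 2, and at day 4 water it was -0.63 (limma adjusted p 0.147) and -0.45 (limma adjusted p 0.201).

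ABI2, the close relative of ABI1 with a similar role, differed by less than HAI1 and HAI2 but passed in 4 conditions. The arrays read -0.13 and -0.15 at day 0, 0.42 and 0.50 at day 2 water, -0.32 and -0.27 at day 4 water, and -0.60 and -0.49 at day 6 water. Under drought they read -0.56 and -0.28 at day 2, -0.06 and 0.01 at day 4, and -0.19 and -0.63 at day 6. Quad was above WT at day 2 water on both arrays, and at day 4 drought the 2 arrays lay on either side of 0. The ratio passed at day 2 water (0.46, SE 0.104, limma adjusted p 0.0071), day 2 drought (-0.42, limma adjusted p 0.0152), day 6 water (-0.55, limma adjusted p 0.00425) and day 6 drought (-0.41, limma adjusted p 0.0238). Its second probe passed at day 2 water (0.32) and day 6 water (-0.46) but not at day 2 drought (-0.15) or day 6 drought (-0.28). The day 2 drought call was lost without replicate 1 (-0.28, limma adjusted p 0.344), the day 6 drought call without replicate 2 (-0.19, limma adjusted p 0.482), the day 6 water call without replicate 1 (-0.49, limma adjusted p 0.0587) and the day 2 water call without replicate 1 (0.50, limma adjusted p 0.0692) or replicate 2 (0.42, limma adjusted p 0.135).

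HAB1 (HYPERSENSITIVE TO ABA 1), whose loss makes plants more sensitive to ABA, was raised in quad at day 2 water. The arrays gave -0.08 and -0.21 at day 0, 0.65 and 0.72 at day 2 water, -0.13 and -0.75 at day 4 water, and 0.03 and -0.11 at day 6 water. Drought arrays gave 0.12 and -0.08 at day 2, -0.00 and 0.05 at day 4, and -0.43 and -0.57 at day 6. At day 4 water the 2 arrays were far apart, and they lay on opposite sides of 0 at day 6 water and at days 2 and 4 of drought. The ratio passed at day 2 water (0.68, SE 0.122, limma adjusted p 0.00147), day 4 water (-0.44, limma adjusted p 0.0315) and day 6 drought (-0.50, limma adjusted p 0.0195). The second probe of HAB1 passed in the same 3 conditions, with 0.33, -0.41 and -0.42. Without replicate 2 the day 4 water value fell to -0.13 (limma adjusted p 0.527), and the day 6 drought call was lost without replicate 1 (-0.57, limma adjusted p 0.0635) or replicate 2 (-0.43, limma adjusted p 0.223).

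HAB2, the homologue of HAB1, moved little. Its 14 ratios lay between -0.55 and 0.05 with a median of -0.09. The single condition that passed was day 4 water, with -0.55 and -0.31 on the arrays and a fitted -0.43 (SE 0.0966, limma adjusted p 0.0109). Without replicate 1 that call was lost (-0.31, limma adjusted p 0.288).

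PP2CA (also known as AHG3), a phosphatase that acts on guard cell channels as well as on SnRK2s, was the only gene of the 6 raised at day 2 water whose ratio stayed at or above 0 on both day 4 water arrays. Day 0 gave 0.16 and 0.15. Watered plants gave 0.33 and 0.29 at day 2, 0.22 and 0.06 at day 4, and -0.42 and -0.44 at day 6, and drought plants 0.07 and -0.11, 0.29 and 0.26, and -0.11 and -0.33 at the same days. The turn from above to below 0 therefore came between days 4 and 6 in the watered plants of this gene. Replicates differed by a median of 0.04, the narrowest gap of the family, and the ratio passed at day 2 water (0.31, SE 0.0832, limma adjusted p 0.0177) and day 6 water (-0.43, limma adjusted p 0.00487). The day 2 call was lost without replicate 1 (0.29, limma adjusted p 0.201) or replicate 2 (0.33, limma adjusted p 0.145) and the day 6 call without replicate 2 (-0.42, limma adjusted p 0.0811).

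AHG1 (ABA-HYPERSENSITIVE GERMINATION 1) is known from seeds, where it restrains germination responses to ABA. Its probe was well above background in 3 of 28 channels, all of WT, and its 14 ratios ran from -0.32 to 0.11. With no filter on dim probes 0 of its 25 comparisons passed, 1 of them having an unadjusted p under 0.05. Seed markers were likewise near background in these plants, with the 2S albumin genes SESA2 and SESA3 and the cruciferin gene CRU3 above it in 0 of 28 channels, SESA1 and OLEO1 in 2 and CRA1 in 10.

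The counts can be set against all genes of the same fit. At day 0, where 0 of the 8 genes passed and 2 had an unadjusted p under 0.05, 10.1% of all genes passed in either direction. At day 2 water 6 of 8 were higher against 13.4% of all genes, and 1, HAI2, was also past the log2 limit against 1.58%. At day 2 drought 2 of 8 were lower against 11.9%. At day 4 water 5 of 8 were lower against 7.98%, 1 of them, HAI1, past the log2 limit against 0.899%. At day 4 drought 1 of 8 was lower against 2.58%, at day 6 water 4 of 8 against 6.78%, and at day 6 drought 3 of 8 against 7.07%. The median ratio of the 8 was 0.48 at day 2 water, -0.44 at day 4 water, -0.39 at day 6 water and -0.27 at day 6 drought, and lay between -0.14 and -0.03 in the other conditions, while the median of all genes stayed between -0.01 and 0.01 in every condition.

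Other tissue markers moved over the same arrays. Of 8 root genes, which include PYK10, CASP1 and COBL9, 4 were higher in quad at day 2 water (median 0.39). The share of all genes higher there was 13.4%. At day 2 drought 7 root genes were lower (median -1.68), against 11.9%. All 8 were higher at day 4 water (median 0.996, against 5.12%), day 6 water (median 1.37, against 7.78%) and day 6 drought (median 0.82, against 4.93%). Their summed intensity in WT was 8821 to 10296 at day 2 water and 18552 to 21797 at day 2 drought, and in quad it was 16468 to 18074 and 12649 to 12928. Of 9 flower genes 6 were lower in quad at day 4 water (median -0.87), against 7.98% of all genes. At day 2 drought 6 were higher (median 0.63), against 5.74%. The sum of the flower genes at day 4 water was 11268 to 11472 in WT and 4660 to 5415 in quad. The flower count at day 2 drought was 0 without replicate 1 of that condition, and the root count at day 6 drought was 5 without either array. Of 5 guard cell genes, all above background in 28 of 28 channels, GC1 was higher in quad at day 4 water (0.67), day 4 drought (0.54) and day 6 water (0.67), MYB60 at day 4 water (0.48) and SLAC1 at day 6 drought (0.39), and KAT1 was lower at day 2 drought (-0.30) and day 6 drought (-0.51). Their summed intensity lay between 4206 and 6374 over all channels, with 6365 to 6374 in quad and 4673 to 5056 in WT at day 4 water. The part of these shifts in tissue markers in the PP2C ratios was not tested.

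The levels of HAI1 and HAI2 in each genotype were read along the watered plants. In WT both fell from day 0 to day 2 and stood higher again at day 4, and in quad both were lower at day 4 than at day 2. HAI2 in WT read 10.60 and 10.35 at day 0, 8.79 and 8.51 at day 2 water, 10.37 and 10.16 at day 4 water, and 9.62 and 9.46 at day 6 water. In quad it read 10.51 and 10.50, 10.25 and 10.29, 8.95 and 8.99, and 8.55 and 8.54 at the same times. The 2 genotypes overlapped at day 0, and by day 2 both WT values lay below both quad values of that day. HAI1 in WT went from 9.38 and 9.52 at day 0 to 6.83 and 6.82 at day 2 water and to 8.95 and 8.75 at day 4 water, and in quad from 9.0 and 9.20 to 7.95 and 8.17 and to 7.12 and 7.21. HAI1 thus fell in both genotypes by day 2, and by day 4 it was high again in WT and lower still in quad.

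**Figure D2:**
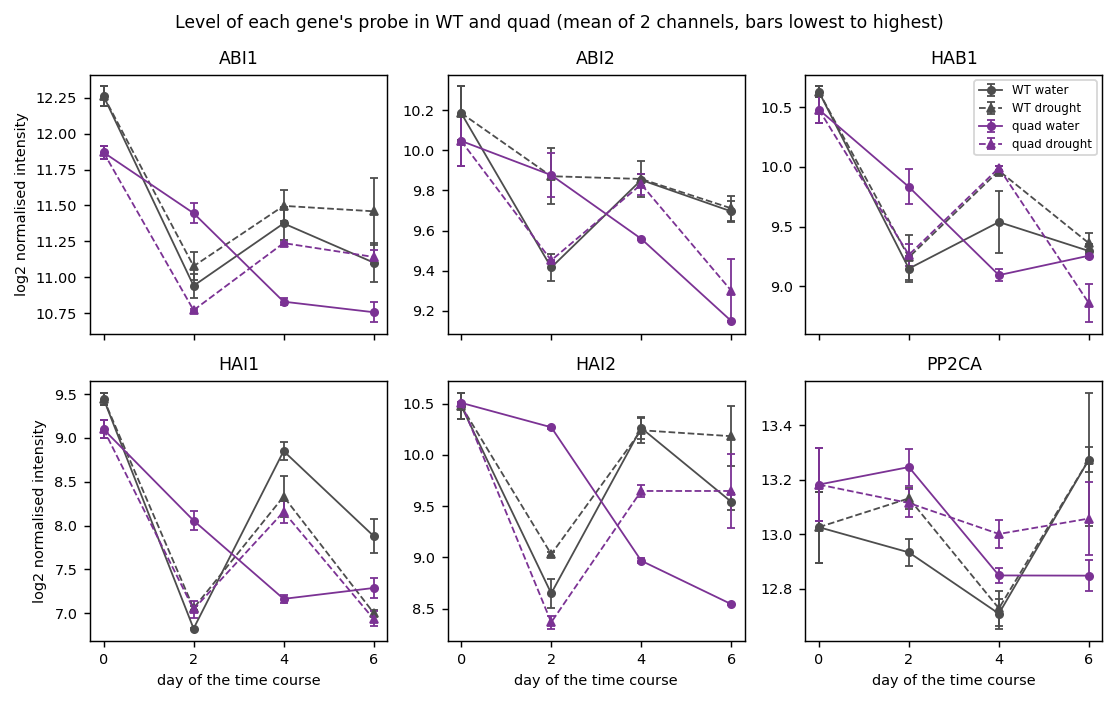
Log2 normalised intensity (y axis, its own range in each panel) of 6 clade A PP2Cs against the day of the time course (x axis), in WT (grey) and quad (purple), watered (solid, circles) and drought (dashed, triangles); points are means of 2 channels and bars run from the lower to the higher. HAI1 in watered WT was at 6.82 to 6.83 at day 2 and 8.75 to 8.95 at day 4, and in watered quad at 7.12 to 7.21 at day 4.

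Against day 0, watered WT plants were lower in 5 of 8 PP2Cs at day 2, against 13.3% of all genes lower, and 2 of these passed the log2 limit against 1.62%. The log2 changes were -2.62 for HAI1 (SE 0.146, limma adjusted p 2.14e-11), -1.83 for HAI2, -1.48 for HAB1, -1.32 for ABI1 and -0.77 for ABI2. HAI1 and HAI2 are the ones past the limit. At day 4, 3 of 8 were lower (ABI1, HAB1 and HAI1) against 9.81%, and at day 6, 5 of 8 against 12.3%, with HAI1 (-1.57) past the limit against 0.857%. In watered quad plants 3 of 8 were lower at day 2 against 6.20%, 5 of 8 at day 4 against 8.97% and 5 of 8 at day 6 against 11.2%. The quad changes at day 2 were -1.04 for HAI1 (SE 0.146, limma adjusted p 3.6e-05), -0.65 for HAB1 and -0.42 for ABI1 (limma adjusted p 0.0489), and HAI2 had -0.24 (limma adjusted p 0.402). The ABI1 value is on the edge of the threshold and was lost under 13 of 22 alternatives. HAI1 and HAI2 passed the limit at day 4 in quad (-1.94 and -1.54, against 0.274% of all genes) and at day 6 (-1.81 and -1.96, against 0.314%). No PP2C was raised above day 0 in either genotype at any watered day, and PP2CA, HAB2 and HAI3 passed in none of these comparisons. The second probe of ABI2 gave -0.17 in WT at day 2 (limma adjusted p 0.288). In WT the HAI1 call at day 4 was lost without day 0 replicate 2 (limma adjusted p 0.0571) or day 4 water replicate 2 (limma adjusted p 0.067), and the ABI2 call at day 6 without day 0 replicate 2 (limma adjusted p 0.111) or day 6 water replicate 2 (limma adjusted p 0.0779). In quad the HAB1 call at day 2 was lost without day 0 replicate 1 (limma adjusted p 0.0957) or day 2 water replicate 1 (limma adjusted p 0.108), and the ABI2 call at day 4 without day 0 replicate 2 (limma adjusted p 0.128) or either day 4 water array (limma adjusted p 0.0562 and 0.0623). In an alternative, each array's ratios were centred on their median in place of the quantile step, and intensities stayed unscaled between arrays. The number of passes over the 3 days was then 6 in place of 13 in WT and 5 in place of 13 in quad.

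The difference between the genotypes in this course was tested on the ratios, as each watered day minus day 0, 3 comparisons that share the day 0 arrays. At day 2, 5 of 8 genes had moved up in quad relative to WT, against 10.9% of all genes: HAI2 by 1.59, HAI1 by 1.58 (SE 0.145, limma adjusted p 1.33e-05), ABI1 by 0.90, HAB1 by 0.83 and ABI2 by 0.60. HAI1 and HAI2 passed the log2 limit, against 2.43%. The second probe of HAB1 also passed (0.53, limma adjusted p 0.0234), but that of ABI2 did not (0.26, limma adjusted p 0.317). At day 4 HAI1 (-1.34) and HAI2 (-1.32) had moved down, against 4.83%, and at day 6 HAI2 (-1.03) and PP2CA (-0.58) had, against 3.23%. Without day 0 replicate 2 the number of passes over the 3 days was 5 in place of 9, as ABI1 (limma adjusted p 0.0903), ABI2 (limma adjusted p 0.0875) and HAB1 (limma adjusted p 0.0535) at day 2 and PP2CA (limma adjusted p 0.0608) at day 6 were lost. ABI1 was also lost without day 2 water replicate 1 (limma adjusted p 0.106), ABI2 without day 0 replicate 1 or either day 2 water array (limma adjusted p between 0.0657 and 0.110), and PP2CA without day 0 replicate 1 (limma adjusted p 0.0629) or day 6 water replicate 2 (limma adjusted p 0.0538).

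Drought set against water on the same day asks whether withholding water changed PP2C transcripts in each genotype, and it compares arrays with each other. At day 2 in WT 1 of 8 rose, ABI2 by 0.45 (SE 0.126, limma adjusted p 0.0181), against 10.5% of all genes. Its levels were 9.35 and 9.48 watered and 10.01 and 9.73 in drought, but the second probe of ABI2 had -0.03, and the call was lost without day 2 drought replicate 1 (0.31, limma adjusted p 0.306) and without day 2 water replicate 1 (0.39, limma adjusted p 0.143). In quad at day 2, 5 of 8 fell, against 5.91% of all genes: HAI2 by 1.90 (SE 0.174, limma adjusted p 2.82e-07), HAI1 by 1.01, ABI1 by 0.67, HAB1 by 0.57 and ABI2 by 0.42. Only HAI2 was past the log2 limit, against 0.473%. The second probe of HAB1 did not pass (-0.30, limma adjusted p 0.0947), and that of ABI2 did (-0.50, limma adjusted p 0.00509). HAI2 in quad stood at 10.25 and 10.29 watered and at 8.30 and 8.43 in drought, while WT stood at 8.79 and 8.51 and at 9.01 and 9.05, so that the genotypes had changed places. The quad fall of HAB1 had a limma adjusted p of 0.233 without day 2 drought replicate 1, 0.0552 without day 2 drought replicate 2 and 0.319 without day 2 water replicate 2, that of ABI1 0.0667 without day 2 water replicate 1, and that of ABI2 passed under 8 of 22 alternatives. Over the 3 days 5 falls and 4 rises passed in quad, and with the scanner's own processed signals 2 falls and 3 rises did.

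At day 4 no PP2C passed in WT, where 3 of 8 had an unadjusted p under 0.05 and 2.17% of all genes passed in either direction. The WT values nearest to the threshold were -0.52 for HAI1 (limma adjusted p 0.0771) and 0.43 for HAB1 (limma adjusted p 0.244). In quad 3 of 8 rose against 3.11% of all genes, namely HAI1 by 0.99 (SE 0.146, limma adjusted p 0.000153), HAB1 by 0.90 and HAI2 by 0.68 (limma adjusted p 0.0232). HAI1 in quad read 7.12 and 7.21 watered and 8.03 and 8.28 in drought. The HAI2 rise was lost without any 1 of the 4 arrays of that day (limma adjusted p between 0.0881 and 0.196). At day 6 in WT HAI1 fell by 0.88 (SE 0.146, limma adjusted p 0.000243) against 7.80% of all genes lower, and HAI2 rose by 0.64 (limma adjusted p 0.0153) against 7.32% higher. In quad HAI2 alone passed, with a rise of 1.10 (limma adjusted p 9.96e-05) against 7.27%. The WT rise of HAI2 was lost without day 6 drought replicate 2 (0.35, limma adjusted p 0.108) and without day 6 water replicate 2 (0.56, limma adjusted p 0.149), and its value in quad varied between 0.74 and 1.47 among the alternatives. HAI1 and HAI2 had opposite signs under drought at day 6 in both genotypes, with -0.35 for HAI1 in quad (limma adjusted p 0.106). With each array's ratios centred on their median in place of the quantile step, 0 of 24 drought comparisons passed in WT, in place of 3. In quad 2 of 24 then passed, in place of 9. Without day 6 drought replicate 1, 5 passed in WT.

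**Figure D3:**
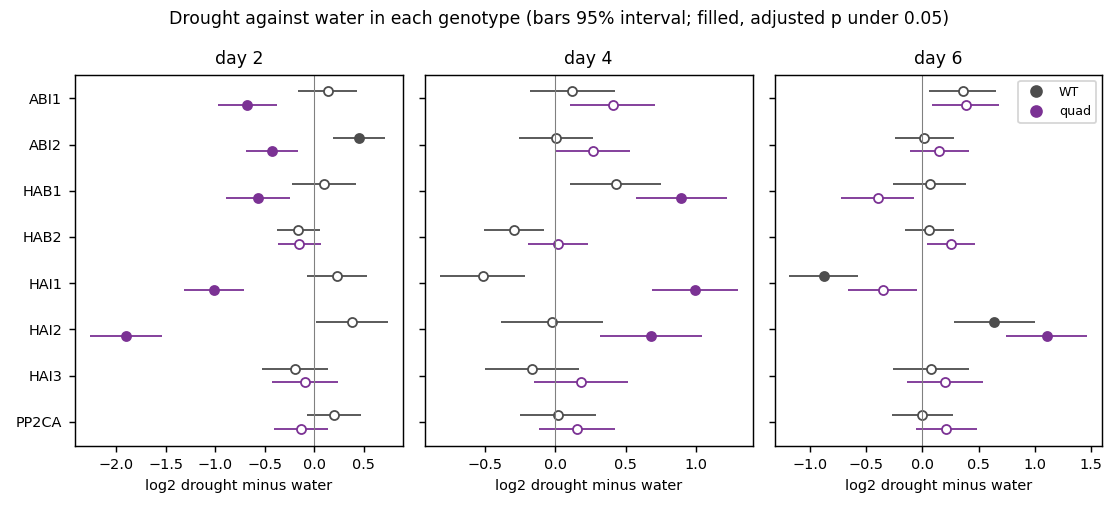
Log2 change from watered to drought plants (x axis) of the 8 clade A PP2Cs that passed the filter (y axis) at days 2, 4 and 6, in WT (grey) and quad (purple); bars are 95% intervals of the single-channel fit, and filled points have an adjusted p under 0.05. At day 2 the quad points of HAI2 (-1.90) and HAI1 (-1.01) lie left of 0 and the WT points (0.38 and 0.23) right of it.

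The difference between these drought changes, quad minus WT, is the change of the ratio from water to drought. At day 2 it passed as lower in 5 of 8 genes against 15.1% of all genes, with -2.28 for HAI2 (SE 0.146, limma adjusted p 7.47e-07), -1.24 for HAI1, -0.88 for ABI2, -0.81 for ABI1 and -0.66 for HAB1, and HAI2 was past the log2 limit against 2.54%. PP2CA had -0.33 (95% interval -0.59 to -0.07, limma adjusted p 0.0683) and HAB2 0.01 (95% interval -0.29 to 0.31). The second probe of HAB1 did not pass (-0.36, limma adjusted p 0.0968), and that of ABI2 did (-0.47, limma adjusted p 0.0398). At day 4 it passed as higher in HAI1 (1.51, limma adjusted p 9.68e-05) and HAI2 (0.70, limma adjusted p 0.0166) against 2.87%, with HAI1 past the limit against 0.623%. At day 6 none passed, 3 of 8 having an unadjusted p under 0.05, against 4.69% in either direction. The values of HAI1 (0.52, 95% interval 0.21 to 0.84) and HAI2 (0.46, 95% interval 0.14 to 0.78) lay above 0. Both passed with a term for the replicate number in the fit. The sign for HAI1 and HAI2 was thus negative at day 2 and positive at day 4. ABI1 at day 2 had a limma adjusted p of 0.0985 without day 2 drought replicate 2 and 0.126 without day 2 water replicate 1. HAB1 at day 2 was lost without day 2 drought replicate 2 (limma adjusted p 0.118), day 2 water replicate 1 (limma adjusted p 0.0671) or day 2 water replicate 2 (limma adjusted p 0.096), and HAI2 at day 4 without either drought array (limma adjusted p 0.118 and 0.0651) or water replicate 1 (limma adjusted p 0.182).

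The arrays lay on 4 slides, and drought and water of a day shared a slide for both replicates at days 2 and 6 and for replicate 2 at day 4. Within a slide the day 2 change of the HAI2 ratio was -2.17 and -2.40, that of HAI1 -1.01 and -1.48, that of ABI2 -0.97 and -0.78, that of ABI1 -0.86 and -0.76, and that of HAB1 -0.53 and -0.80. All 10 values are below 0. At days 2 and 6 the fitted change is the mean of the values within slides. They show the spread between the replicates and are no separate check on an effect of the slide. At day 4 the single slide gave 1.25 for HAI1 and 0.52 for HAI2. Of the changes inside a genotype, the day 2 fall of HAI2 in quad was -1.95 and -1.86 within slides, the day 6 fall of HAI1 in WT -1.03 and -0.72, and the day 6 rise of HAI2 in quad 0.73 and 1.47.

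The PP2Cs were then placed beside the other steps of the ABA pathway on the same arrays, from lists of genes with known roles in it. The ABA receptors act upstream by capturing the phosphatases. Of 14 receptor genes 10 passed the filter (PYL3, PYL10, PYL12 and PYL13 did not), and their median ratio lay between -0.22 and 0.18 in every condition. At day 2 water 2 receptors were higher, against 13.4% of all genes, and 1 lower, against 8.05%, and at day 4 water 1 was higher, against 5.12%, and 1 lower, against 7.98%. The receptor counts at day 2 drought, 3 lower and 1 higher, were 0 without replicate 2 of that condition. PYL5 was higher in quad in 6 of 7 conditions, from 0.32 at day 2 drought to 1.70 at day 6 drought (SE 0.0965, limma adjusted p 1.23e-06), where its arrays read 1.69 and 1.70. Its ratio was above 0 at day 4 water (0.82) and day 6 water (1.05), in which the PP2Cs that passed were lower in quad.

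The SnRK2 kinases, the substrates held back by the PP2Cs, and the ABF factors below them gave few passes. Of 8 genes 1 was higher at day 2 water, near the 13.4% of all genes, namely ABF3 (0.85, SE 0.125, limma adjusted p 0.000364), a transcription factor that drives ABA-responsive genes, and ABF3 was lower at day 2 drought (-0.75) and day 6 drought (-0.87). At day 4 water 1 was lower, ABI5 (-0.70, limma adjusted p 0.000248), a factor best known from seeds, whereas ABI5 passed as higher in 4 other conditions, with 0.39 at day 0, 0.36 under drought at day 2, and 0.36 (watered) and 0.34 (drought) at day 6. Of the 3 ABA-activated kinases, SNRK2.6 was higher in quad at day 0 (0.51, limma adjusted p 0.0152), and its ratio fell from water to drought at day 2 by 0.58 (limma adjusted p 0.0252), while SNRK2.2 and SNRK2.3 passed in none of the 7 conditions. The 3 passes of this list at day 0 were 0 without either array of that condition.

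Genes of ABA synthesis were mostly lower in quad where they passed. NCED3, which encodes the rate-limiting dioxygenase of drought-induced ABA synthesis, had -1.48 at day 0 (SE 0.0900, limma adjusted p 7.44e-07). ABA1, the zeaxanthin epoxidase, had -1.03 there, whereas NCED2 was higher in quad (0.45, limma adjusted p 0.0107). NCED2 was also higher at day 2 water (1.30, limma adjusted p 1.78e-06) and passed as lower at day 6 water (-0.68) and day 6 drought (-0.49). At day 2 water 3 of 8 were higher, against 13.4% of all genes, and 2 lower, against 8.05%. At day 4 water 3 were lower, against 7.98%. At day 6 drought 5 were lower, against 7.07%, with ABA1 at -1.27. NCED9 did not pass the filter. Without day 4 water replicate 1 the count there was 0, without day 6 drought replicate 1 or 2 it was 3 or 1, and without either array of day 2 water it was 1 higher and 0 lower. NCED2 and NCED6 were above background in 22 and 4 of 28 channels. Of the 4 CYP707A genes, which encode the hydroxylases that break ABA down, 3 were higher at day 2 water, against 13.4% of all genes. They were led by CYP707A1 (0.56), and none of the 4 passed at day 4 water. The 3 became 0 without day 2 water replicate 1 and 1 without replicate 2. At day 2 drought CYP707A3 (-1.02) and CYP707A1 (-0.35) were lower, against 11.9% of all genes. CYP707A4 (0.36) and CYP707A2 (0.33) were higher, against 5.74%. Most of these 4 calls were lost without either array of that condition.

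The genes that ABA and dehydration switch on are a common readout of the pathway's output. Of 16 such genes 10 were higher at day 2 water, against 13.4% of all genes, and none lower, with a median of 0.77. At day 4 water 12 were lower, against 7.98%, and none higher, with a median of -0.89. LEA7, a late embryogenesis abundant protein gene, read 2.59 and 2.84 at day 2 water and -5.01 and -5.03 at day 4 water, and RD29B read 2.44 and 2.35 and then -3.32 and -3.38. At day 2 drought 13 of 16 were lower (median -1.23), against 11.9%. At day 4 drought 8 were lower, against 2.58%, and 1 higher, against 3.32%. At day 6 water 12 were lower, against 6.78%, and 1 higher, against 7.78%. At day 6 drought 12 were lower, against 7.07%, and none higher. The 10 at day 2 water were 6 without replicate 1, and the 9 passes at day 4 drought were 5 without replicate 2. Day 0 differs from the PP2Cs in counts. There 11 of these 16 genes were lower (median -1.12), against 6.57% of all genes, and 1 was higher, against 3.52%. Of the PP2Cs 0 of 8 passed at day 0 in the main fit, where 5 of 8 were below 0 (median -0.14). With a term for the replicate number in the fit, ABI1 and HAI1 passed there as lower. Whether the 2 lists differ was not tested.

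**Figure D4:**
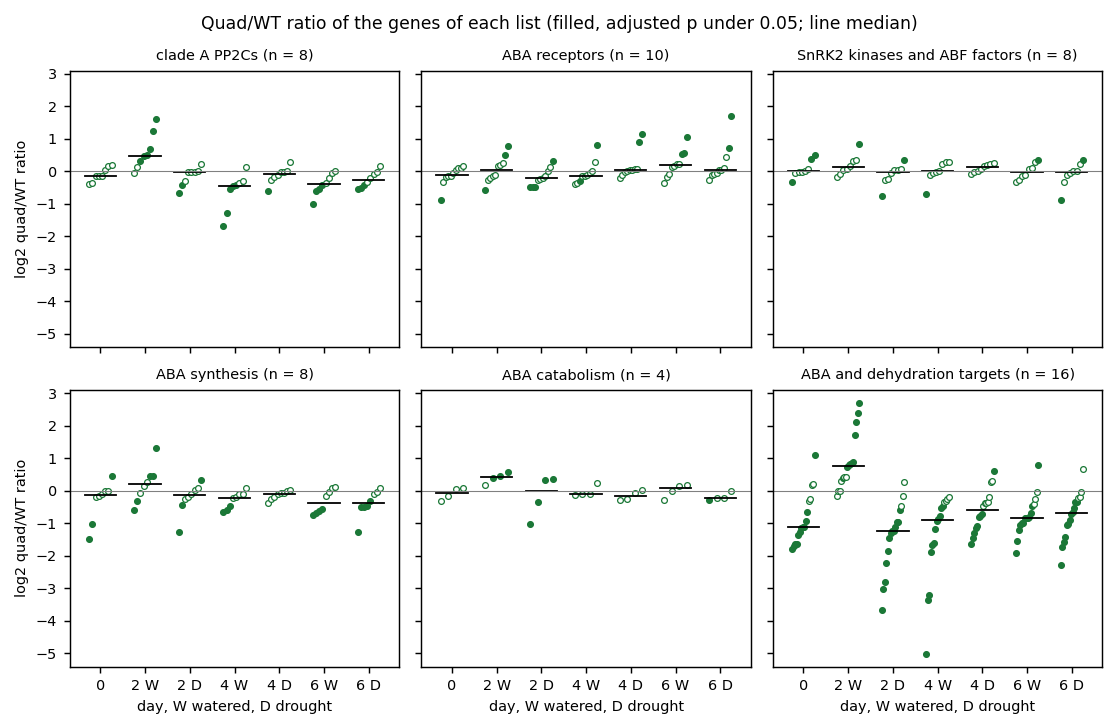
Log2 quad/WT ratio (y axis) of the genes of 6 lists by condition (x axis, day with W for watered and D for drought); each point is a gene's fitted ratio from 2 arrays, filled where its adjusted p is under 0.05, and lines are medians. The PP2Cs and the 16 ABA and dehydration targets have medians above 0 at day 2 water (0.48 and 0.77) and below 0 at day 4 water (-0.44 and -0.89), and the receptor medians stay between -0.22 and 0.18.

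Over the 14 arrays, which share conditions in pairs, the ratios of HAI1 and HAI2 had the highest Pearson r within the family (0.87), followed by ABI2 with HAI2 (0.82) and ABI1 with HAB1 (0.81), and HAB2 with PP2CA the lowest (-0.08). HAB2 and HAB1 had 0.19, and ABI1 and ABI2 0.73. Among 18591 other genes above background in all 28 channels, the 5 whose ratio was most like the mean of the 8 PP2Cs over these arrays were ALDH7B4 (r 0.98), an aldehyde dehydrogenase gene, CAD1 (0.97), CYP76C2 (0.97), the ethylene synthesis gene ACS2 (0.97) and SRG1 (0.96). The mean was taken over unscaled ratios. HAI1 (-1.83 to 1.35) and HAI2 (-1.42 to 1.78), with the widest ranges, therefore weigh most in it. These correlations describe 14 arrays of 7 conditions and carry no test.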

How the data were processed

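RNA of quad and WT plants was hybridised in 2 colours on 14 arrays of 45210 spots each. Per the file headers, spot intensities (median Cy3 and Cy5 signals with their local backgrounds) came from Feature Extraction 10.5.1.1, which also gave the deposited processed intensities and their log10 Cy5/Cy3 ratio. The authors also deposited log2 ratios made with limma by normexp correction and quantile normalisation, here an alternative.

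Here the median intensities were corrected with normexp (offset 50), scaled by loess within arrays and Aquantile between them (limma 3.58.1, R 4.3.3), and turned to quad over WT. Control spots (1417) took no part in the loess and outlier spots were left out. Spots of a probe were averaged, and the brightest probe stood for its locus. A locus was kept if, in 1 genotype and condition or more, both of its channels were called well above background (22810 of 28327). Ratios were fitted with lmFit and eBayes over 7 conditions (7 residual degrees of freedom), and single channels with lmscFit (intraspot correlation 0.251, 22641 genes), with Benjamini-Hochberg adjustment over all genes, two-sided. The number of arrays limits the precision, and no spot was saturated.

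Groups and replicate numbers came from the labels. Named genes were the 9 phosphatases, with every array's value for those past the test in 2 or more conditions, up to 3 genes of each list with the largest ratio, and the 5 most similar profiles. Members and lists were chosen with earlier results of these data known. Names follow the array, and 27785 loci matched the RefSeq table, from which no coordinates were taken. The scripts were tested on simulated data. Alternatives covered the offset, the processed signals, the scaling, the probes of a locus, the filter, masked spots, slide and replicate blocks, the deposited ratios, the log2 limit and each array left out.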

Additional observations from a re-analysis of the deposited data

Results flagged for a closer look

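The change of a gene between conditions differed between quad and WT, by the test of the difference itself in limma, in 16 cases. From water to drought at day 2 the difference quad minus WT was -0.81 for ABI1, -0.879 for ABI2, -0.663 for HAB1, -1.24 for HAI1 and -2.28 for HAI2, and at day 4 it was 1.51 for HAI1 and 0.703 for HAI2. From day 0 to day 2 in watered plants it was 0.896 for ABI1, 0.599 for ABI2, 0.833 for HAB1, 1.58 for HAI1 and 1.59 for HAI2. From day 0 to day 4 it was -1.34 for HAI1 and -1.32 for HAI2, and from day 0 to day 6 it was -1.03 for HAI2 and -0.583 for PP2CA. The day 2 water arrays enter 10 of these differences and the day 0 arrays 9. The second probe of HAB1 did not pass from water to drought at day 2, nor that of ABI2 from day 0 to day 2.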

How the results depend on the processing

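Of 4504 values of the 8 genes compared over 23 alternatives (all but the log2 limit), 4321 kept their side of the threshold, 121 lost it and 62 gained it. Among the 4321, 90 changed sign without passing in the main fit or the alternative. No value that passed in either of these changed sign. Leaving out an array cannot change estimates that do not use it, which holds down the count of changes. The deposited ratios were nearly those of the main fit (r 0.9989 or more on each array). There 104 of 104 values kept their side. Of the 75 calls of the main fit over all comparisons, 30 were kept under every one of these alternatives. Among the quad/WT ratios, HAB1 at day 2 water, HAI1 on the 3 watered days, and HAI2 at day 2 in both conditions and at days 4 and 6 water passed under each of these, 8 of 21. With the log2 limit of 1.5 added, 2 quad/WT ratios, 2 differences from water to drought, 2 from day 0, 0 drought changes in WT and 1 in quad, and 3 changes from day 0 in WT and 4 in quad were left. Median centring without Aquantile left 0 drought changes in WT, 2 in quad, and 6 and 5 changes from day 0 in WT and quad, and the scanner's processed signals left 5 drought changes in quad; the cause was not tested. The median of all genes shifted by -0.118 to 0.372 under the first and by -0.249 to 0.189 under the second. Leaving out 1 array gave 18 to 21 passes for quad/WT ratios, 5 to 7 and 5 to 10 for the differences from water to drought and from day 0, 2 to 5 and 7 to 10 for drought in WT and quad, and 11 to 15 in each genotype for changes from day 0; the intraspot correlation of all arrays was kept there. Same-numbered arrays correlated in their deviations with r from 0.0039 to 0.634 over 21 pairs (median 0.413, 19 over 0.1). As 2 pairs stayed under 0.1, the number, which is also the dye orientation, was not taken as a pairing. A shared effect of number or dye was not tested apart from a pairing. The main fit left any deviation that same-numbered arrays share in its spread. With the replicate block 18 values gained the threshold and 1 lost it, ABI2 under drought in quad at day 2 (-0.42, limma adjusted p 0.0529). The quad/WT passes became 30 in place of 21, among them ABI1 (limma adjusted p 0.00437) and HAI1 (limma adjusted p 0.0308) as lower at day 0, and HAI1 (limma adjusted p 0.0373) and HAI2 (limma adjusted p 0.0233) then passed in the difference from water to drought at day 6. The counts of the pathway and tissue lists also moved with single arrays, as given beside them.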
